A study of Mus musculus with 6 samples.

Results

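Acetylated histone H3 at lysine 27 (H3K27ac) was mapped by chromatin immunoprecipitation sequencing in 2 libraries of mouse gastric corpus epithelium, 1 of healthy stomach and 1 of a tumor induced by active YAP. Each library was represented by its own deposited list of peak summits, and every summit on chromosomes 1 to 19 and X was taken. The normal list held 22386 summits and the tumor list 66532, together 88918 of the 184671 summits in the 6 libraries of the study. The tumor list was 2.97 times as long. It was therefore also cut to its 22386 best-scored summits, called below the tumor list at equal length, which ended at a score of 23.1. The score, as deposited, is a −log10 of either a p-value or a q-value.

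The normal mice were wild type. The tumor mice had the genotype CluCreERT2;R26rtTA;HA-Yap+, in which a tamoxifen-activated Cre is expressed from Clu, a tetracycline-dependent activator from the Rosa26 locus, and a tagged Yap is the induced protein. Tamoxifen (2 mg on each of 5 days) and then doxycycline food for 14 days are given in the labels for both groups, so the agents are shared and the alleles are not. Epithelium was released with EDTA and was not cultured, and how many animals went into a library is not stated in the labels. The remaining 4 libraries, YAP immunoprecipitations, are used below only to say where YAP summits lay.

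H3K27ac is deposited by the acetyltransferases p300 and CBP, and it marks promoters and enhancers that are in use. YAP is a coactivator that the Hippo kinases hold out of the nucleus. When it enters, it binds DNA through TEAD proteins, often at enhancers, and it is known for driving growth and cell division. The corpus epithelium is built from acid-secreting parietal cells, pepsinogen-secreting chief cells, mucous neck cells and the surface pit cells. With 1 library per group no difference below has a replicate check. Values are therefore described with no test, and Wilson 95% intervals cover counting error only.

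Some starts of cell division genes had a summit in the tumor list only, and some starts of interferon-induced genes had one in the normal list only. The promoters of 4 genes of the first kind are shown, chosen because they hold the letters described next, as the 250 bases before the transcript start, from the RefSeq promoter table of build GRCm38.p6, 5′ to 3′ on the strand of the gene. Capitals mark the CCAAT box, which the factor NF-Y binds. They also mark TTTGAA, the core of the cell cycle homology region known from genes expressed at mitosis. Both were looked for on both strands, so their reverse complements are in capitals too.
Ccnb1, chr13:100786487-100786736, minus strand: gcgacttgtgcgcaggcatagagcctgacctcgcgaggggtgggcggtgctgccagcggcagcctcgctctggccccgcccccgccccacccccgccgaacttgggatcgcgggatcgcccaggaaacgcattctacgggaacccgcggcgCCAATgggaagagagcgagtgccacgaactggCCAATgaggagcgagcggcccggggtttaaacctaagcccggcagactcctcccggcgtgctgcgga
Ccnb2, chr9:70421555-70421804, minus strand: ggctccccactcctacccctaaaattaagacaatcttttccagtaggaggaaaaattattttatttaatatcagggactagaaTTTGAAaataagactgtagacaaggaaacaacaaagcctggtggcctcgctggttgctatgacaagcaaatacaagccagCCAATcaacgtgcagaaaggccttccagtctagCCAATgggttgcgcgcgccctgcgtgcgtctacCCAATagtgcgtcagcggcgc
Cdc20, chr4:118437344-118437593, minus strand: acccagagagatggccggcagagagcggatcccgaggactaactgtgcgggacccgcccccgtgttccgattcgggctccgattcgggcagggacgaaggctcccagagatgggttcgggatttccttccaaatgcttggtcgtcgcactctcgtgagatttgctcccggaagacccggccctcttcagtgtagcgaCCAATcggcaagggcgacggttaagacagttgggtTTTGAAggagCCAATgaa
Top2a, chr11:99024190-99024439, minus strand: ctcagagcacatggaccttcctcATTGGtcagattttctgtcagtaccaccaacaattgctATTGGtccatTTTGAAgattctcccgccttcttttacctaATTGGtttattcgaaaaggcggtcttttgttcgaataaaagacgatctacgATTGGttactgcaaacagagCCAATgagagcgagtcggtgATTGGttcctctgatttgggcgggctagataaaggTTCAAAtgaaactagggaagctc
Ccnb2 and Cdc20 also had TTTGAA on the strand shown, and Top2a had it on both strands. Nusap1, a tumor-only start looked at in the same way and not printed, had neither motif in its 250 bases. Cdc20 had its TTTGAA 18 bases before the start and its nearer CCAAT 8 bases before it.

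The promoters of 3 interferon-induced genes marked in the normal list only are shown in the same way, again chosen because they hold the element. Gbp3 and Samd9l, normal-only starts that were looked at too, had no match in their 250 bases and are not printed. Capitals mark GAAA, any 2 bases and GAAA again, or the reverse complement. This is the core of the interferon-stimulated response element, which factors of the IRF family recognise.
Ifit1, chr19:34640639-34640888, plus strand: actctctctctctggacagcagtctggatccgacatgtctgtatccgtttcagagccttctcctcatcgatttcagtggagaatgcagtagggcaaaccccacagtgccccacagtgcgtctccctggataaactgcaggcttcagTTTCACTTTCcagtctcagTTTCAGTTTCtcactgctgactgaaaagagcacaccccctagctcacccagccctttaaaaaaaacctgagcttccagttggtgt
Ifit3, chr19:34583279-34583528, plus strand: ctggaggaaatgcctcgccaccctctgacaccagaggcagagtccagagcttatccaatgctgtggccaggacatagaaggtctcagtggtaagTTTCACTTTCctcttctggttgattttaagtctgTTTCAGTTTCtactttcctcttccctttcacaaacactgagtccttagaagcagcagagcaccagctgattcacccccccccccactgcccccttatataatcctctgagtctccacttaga
Oas1a, chr5:120907526-120907775, minus strand: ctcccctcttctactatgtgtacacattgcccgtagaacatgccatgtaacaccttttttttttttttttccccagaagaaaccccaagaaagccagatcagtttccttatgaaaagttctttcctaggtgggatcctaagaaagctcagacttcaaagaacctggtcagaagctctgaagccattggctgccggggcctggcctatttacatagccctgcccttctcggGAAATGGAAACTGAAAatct
Ifit1 had the element at 104 and at 85 bases before the start, and Ifit3 at 156 and at 122. In Oas1a, matches that begin 20 and 14 bases before the start overlapped.

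The labels were first set against marker genes. Each summit was given to 1 protein-coding gene, the one with the closest end (5′ or 3′) up to 50 kb away. Epithelial genes were marked at their starts in both lists. Krt18 had 4 normal, 4 equal-length tumor and 4 full-list tumor summits, Cldn18 (the tight-junction claudin of gastric epithelium) 3, 3 and 5, Epcam 4, 1 and 2, and Cdh1 7, 2 and 5. Markers of other cells were not absent. The 6 immune markers together had 5, 4 and 10 summits, with Cd3e at 0 throughout, and the 5 fibroblast markers had 5, 3 and 20. The 4 endothelial markers had 5, 3 and 15, and all 5 of their normal summits went to Pecam1, whose start was marked in neither list. The 4 neuronal markers had 1, 3 and 24, 13 of the 24 at Rbfox3. The 3 smooth muscle markers had 2, 0 and 8, the 3 pancreatic markers 0, 1 and 9, the 3 intestinal markers 1, 1 and 7 and the 4 squamous markers 0, 1 and 5. In bulk tissue, fewer cells of a type and less of a mark per cell cannot be told apart.

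The best-scored sites of the libraries were nearly the same places. At equal length, 99.5% of the normal summits in the best-scored decile had a tumor summit within 1 kb, and 100% of the tumor summits had a normal one. The shares parted from the third decile on, with 93.4% of normal and 99.7% of tumor summits shared there and 86.6% and 96.9% in the fourth. Lower down the order turned. In the sixth decile 63.3% (95% interval 61.3 to 65.3) of normal and 36.9% (34.9 to 38.9) of tumor summits were shared, and in the lowest decile 28.3% (26.5 to 30.2) and 16.3% (14.8 to 17.9). Against the full tumor list, which is 2.97 times as long, 50.3% of the lowest normal decile was shared. Over the whole lists 67.4% of normal and 58.2% of tumor summits were shared at equal length, and 80.2% of normal summits had a partner in the full tumor list.

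**Figure D1:**
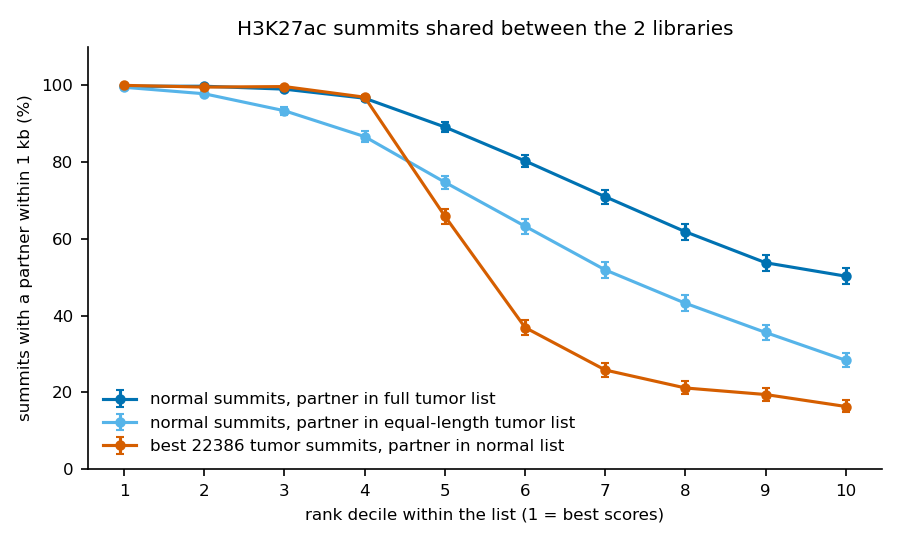
Percent of summits with a summit of the other list within 1 kb (y axis), by rank decile within a list (x axis, best scores at the left), for normal summits against the full and the equal-length tumor list and for the 22386 best tumor summits against the normal list. Bars are Wilson 95% intervals. At equal length the normal curve lies below the tumor curve in the fourth decile (86.6% and 96.9%) and above it in the lowest (28.3% and 16.3%).

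The strongest summits had a partner close by. Among the 2000 best of each list, 0 tumor summits and 4 normal summits (near H2-DMa, Hmgb1 and Syncrip, and 50745 bp from Pls3) lacked a partner within 1 kb, and these 4 had one at 1020 to 1681 bp. Among the 5000 best, 7 tumor summits and 0 normal summits lacked a partner within 5 kb. All 7 belonged to a single array beside Zswim2, which encodes a zinc finger protein.

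The Zswim2 array was evenly spaced. Its 7 summits lay on chromosome 2 between 83955064 and 83989916 (GRCm38), 13838 to 48690 bp outside the gene, and successive gaps were between 5790 and 5827 bp. Scores were alike, from 204 to 218, at ranks 2806 to 3335. The nearest normal H3K27ac summit was 230404 bp or more away. The YAP library labelled tumor 2 had a summit within 97 bp of 6 of the 7 positions, while the nearest summit of the library labelled tumor 1 was at least 69653 bp away. Whether the positions share sequence was not tested.

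The lists also differed in where their summits sat. Summits within 1 kb of a gene start made up 56.6% (55.9 to 57.2) of the normal list, 50.2% (49.6 to 50.9) of the tumor list at equal length and 23.5% of the full tumor list. Summits more than 50 kb from any gene end made up 10.5%, 22% and 23.9%. Normal summits were more often paired up: 19.3% of neighbouring normal summits were under 2 kb apart, against 4.55% in the tumor list at equal length and 12.2% in the full tumor list. The X chromosome held 2.31% of normal summits and 4.16% of equal-length tumor summits, and 66.0% (62.9 to 69.0) of those tumor X summits had no normal partner, against 40.8% (40.1 to 41.4) on chromosomes 1 to 19. Of the normal summits 16.6% on X and 19.9% on chromosomes 1 to 19 had no partner in the full tumor list. Chromosome 19 held 3.54% and 2.88%, and chromosome 11 held 8.0% and 6.79%.

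At gene starts most genes did not separate the libraries. A gene start was called marked when a summit lay within 1 kb of a RefSeq transcript start, or of either gene end for the 4357 of 21631 genes without one in the table. Both lists marked 10768 genes and neither marked 6767. At the 10323 starts marked in both at equal length, the ranks of the best summits had a Spearman rho of 0.88, a description across genes, which are not replicates. The tumor list alone marked 1208 genes at equal length, 5.58% of all, or 3789 (17.5%) with the full list. The normal list alone marked 307 genes (1.42%) against the full tumor list and 752 (3.48%) at equal length. Some of these were starts whose partner lay just outside 1 kb, as at Mboat1 and Ube2e3 (normal summit at 1198 and 1021 bp) or Lpxn and Nufip2 (tumor summit at 1124 and 1016 bp). With no summit of the other list within 5 kb, 1047 tumor-only starts (4.84%) and 160 normal-only starts (0.74%) were left.

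Cell division genes had a larger share of tumor-only starts than all genes. Of 37 cell cycle genes, 10 (27%) were marked in the tumor list only, 8 of them with no normal summit within 5 kb, and 1 (Ccna2, a cyclin of S phase and G2) in the normal list only, with a tumor summit at 1318 bp. The 10 were E2f1, Mybl2, Cdc20, Ccne1, Ccnd1, Ccnb2, Aurkb, Cdc6, Top2a and Ccnb1. At Ccnb1 (chromosome 13, 100778739 to 100786486), the cyclin that takes cells into mitosis, the tumor summit was 173 bp from the start and the nearest normal summit 42086 bp away. At Ccnb2, its close relative, these distances were 189 and 81999 bp, and at Cdc20, the activator of the anaphase-promoting complex, 297 and 9005 bp. E2f1 encodes the transcription factor that opens the S phase program. Its start had a tumor summit at 148 bp, and the nearest normal summit was at 34076 bp. Top2a, the topoisomerase that disentangles chromosomes, had them at 114 and 17185 bp.

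Ccne1, the cyclin that drives entry into S phase, differed over its whole neighbourhood. It had 0 normal summits, 3 tumor summits at equal length and 7 in the full tumor list, with the nearest normal summit 68931 bp from its start. Ccnd1, the cyclin that answers growth factors, differed less: a tumor summit was 164 bp and a normal summit 1543 bp from its start, and it had 2 normal summits, 2 at equal length and 12 in the full tumor list.

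The machinery of mitosis was described with a list of 97 genes that was added after the first results had been seen and shares 4 genes with the cell cycle list. In it, 18 starts (18.6%) were marked in the tumor list only, 16 of them with no normal summit within 5 kb, 0 in the normal list only, and 71 in both. The 18 starts rested on 17 tumor summits, because Nusap1 and Oip5 share one. The 18 encode kinetochore and centromere proteins (Cenpf, Cenph, Cenps, Spc24, Ska1, Oip5), Sgo2a, which protects sister chromatid cohesion, and separase (Espl1), which ends it. The others encode spindle and centriole proteins (Aspm, Nusap1, Ckap2, Cenpj), kinases (Aurkb, Nek2, Melk), the ubiquitin-conjugating enzyme Ube2c and the cytoskeletal proteins Iqgap3 and Diaph3. Their tumor summits ranked from 9536 to 22216, in the middle and lower part of the list, where sharing was lower for all genes. At Diaph3 the nearest normal summit was 275576 bp away, at Nek2 84806 bp and at Melk 66537 bp. DNA replication genes, also an added list, were closer to all genes: 6 of 78 (7.69%) were tumor-only, among them Mcm10, Gins1 and Tk1, and 64 were marked in both lists.

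**Figure D2:**
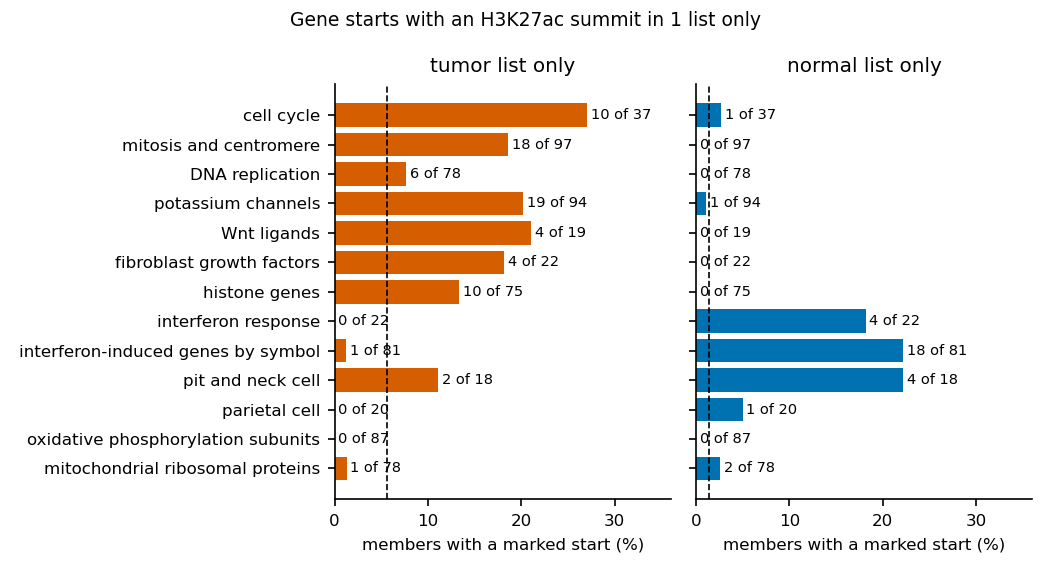
Percent of each list's genes (x axes) whose start had an H3K27ac summit in the tumor list only at equal length (left) or in the normal list only against the full tumor list (right). Counts stand beside the bars and dashed lines give all genes, 5.58% and 1.42%. Cell cycle and mitosis genes reach 27% and 18.6% at the left, and interferon-induced genes 22.2% at the right.

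Ion channel and ligand genes also appeared among tumor-only starts. Potassium channels had 19 tumor-only starts of 94 (20.2%), 18 with no normal summit within 5 kb, against 1 normal-only start, Kcnj16. They included Kcnma1, the large-conductance calcium-activated channel (tumor summit at 22 bp, nearest normal summit at 241500 bp), Kcnq3, a subunit of the neuronal M channel, and Kcnj6, a channel opened by G proteins. Their ranks were low, with a median of 19422. With both lists cut to 10000 summits 2 starts were tumor-only. A further 46 potassium channel starts were marked only by tumor summits below the equal-length limit. The parietal channel gene Kcnq1 was marked in both lists. Wnt ligands, which signal between cells in development, were tumor-only at 4 of 19 starts (Wnt2b, Wnt16, Wnt11 and Wnt9b), and fibroblast growth factors at 4 of 22 (Fgf15, Fgf10, Fgf9 and Fgf17). In each of these families 3 of the 4 had no normal summit within 5 kb, and 0 starts were normal-only, beside 5.58% tumor-only starts among all genes. The Wnt starts ranked from 18232 to 22371, near the equal-length limit, and the growth factor starts from 11529 to 21996. BMP and GDF ligands had 0 tumor-only starts of 22 and 1 normal-only start, Bmp5. Glutamate and GABA receptor genes had 6 normal, 25 equal-length tumor and 108 full-list tumor summits, beside the 1, 3 and 24 of the neuronal markers, whose part in the result was not tested.

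Among growth factor genes, Areg and Ereg are neighbours that encode ligands of the EGF receptor. The start separated the lists at Areg, and the number of summits did so at Ereg. Areg (chromosome 5, 91139599 to 91148432) had a tumor summit 165 bp and the nearest normal summit 40868 bp from its start. In number of summits it had 0 normal, 1 at equal length and 1 in the full tumor list. Ereg was marked at its start in both lists and had 4 normal summits against 1 at equal length and 2 in the full tumor list. Fewer summits at equal length were found at 75% of all genes with 2 or more normal summits. Tead2, one of the DNA-binding partners of YAP, was tumor-only at its start, as was Areg. Its tumor summit was at 237 bp and the nearest normal summit at 61334 bp. Of the 34 YAP target and Hippo genes, 30 were marked in both lists, Tead2 alone was tumor-only and 0 were normal-only. At equal length 6 of the 34 had more tumor summits and 15 had fewer, the 15 being among the 17 with 2 or more normal summits.

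On the normal side were interferon-induced genes, which cells switch on against viruses. In a short list of 22 interferon response genes, 4 starts (Gbp3, Oas1a, Ifit3 and Ifit1) were normal-only and 0 tumor-only at equal length. A longer list was defined by gene symbol after this had been seen and shares 15 genes with the short one. It had 18 normal-only starts of 81 (22.2%), against 1.42% of all genes. All 18 had no tumor summit of the full list within 5 kb, and 1, Slfn9, was tumor-only. The 18 starts rested on 16 normal summits, ranked from 8323 to 21331, and the nearest tumor summit was 5372 to 80528 bp away. With both lists cut to 10000 summits, 8 starts were normal-only.

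Ifit1 (chromosome 19, 34640889 to 34650009) and Ifit3, which encode proteins that bind foreign RNA, had a normal summit 270 and 147 bp from their starts. The nearest tumor summit was 16450 and 40910 bp away. Oas1a, a sensor of double-stranded RNA, had them at 172 and 38989 bp, and Gbp3, a guanylate-binding protein, at 261 and 29417 bp. Samd9l had 4 normal summits, 0 at equal length and 1 in the full tumor list, and Ifi211 had 3, 0 and 0. The pattern did not cover the whole response. Starts in both lists numbered 19 of 81, and 37 were in neither. Isg15, a ubiquitin-like protein, had its nearest normal and tumor summits at 2712 and 2671 bp. Summed over the list there were 59 normal, 22 equal-length tumor and 77 full-list tumor summits. The immune markers of 5, 4 and 10 summits stand beside this. Of these markers Ptprc, the common leukocyte antigen, was normal-only and Spi1, a myeloid factor, was tumor-only, and their part in the result was not tested.

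Transcription factors of the same pathway were mostly marked at their starts in both lists, at 14 of 16 Irf and Stat genes. At equal length 9 of the 16 had fewer summits and 0 had more, and the list's 38 normal summits stood against 17 and, in the full tumor list, 57. Irf2 had 9 normal summits, 2 at equal length and 8 in the full list, Irf1 had 5, 2 and 8, and Stat3 had 5, 2 and 5. Such counts need the background of all genes. Of the 4670 genes with 2 or more normal summits, 75% had fewer tumor summits at equal length, and in the Irf and Stat list this was 6 of 8, the same share.

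The antioxidant genes governed by Nrf2 had 40 normal, 19 equal-length tumor and 47 full-list tumor summits, with fewer at 11 of 18 genes and more at 0. The rule for a called difference, given below, was met at 3 of the 18 at equal length, and at 1 of these with the full list too. At equal length 2.03% of all genes and 9.40% of genes with 2 or more normal summits were called lower. Of the 11 with 2 or more normal summits, 10 had fewer. Starts were marked in both lists at 17 of the 18, and Slc7a11, the cystine transporter, was normal-only. Gsr, the glutathione reductase, had 4, 1 and 4 summits, Fth1, the ferritin heavy chain, 4, 1 and 1, and Nqo1, the quinone reductase, 2, 0 and 1. Glutathione S-transferases, detoxifying enzymes, had 28, 12 and 32, with fewer at 11 of 20 genes and more at 1, Gstp1. All 8 with 2 or more normal summits had fewer. Klf factors had 44, 26 and 60, with fewer at 9 of the 13 genes that had 2 or more, a share below the 75% of all such genes.

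Most starts of housekeeping genes were marked in both lists when the full tumor list was used. Both marked 77 of 87 oxidative phosphorylation genes, 74 of 78 mitochondrial ribosomal protein genes, 84 of 97 cytosolic ribosomal protein genes and all 22 genes of the unfolded protein response. Among the 87 oxidative phosphorylation starts 0 were tumor-only at equal length and 0 were normal-only against the full tumor list. Another 5 were marked only by tumor summits below the equal-length limit. At equal length 7.22% of cytosolic and 6.41% of mitochondrial ribosomal protein starts were normal-only. This compares with 3.48% of all genes and 2.30% of oxidative phosphorylation genes. Only a start marked in the normal list can be normal-only, and ribosomal starts were mostly marked. Among normal-marked starts, 7 of 85 cytosolic and 5 of 76 mitochondrial ones were normal-only, near the 752 of 11075 for all genes. For oxidative phosphorylation genes it was 2 of 77. The cytosolic list was made by symbol and also holds the kinase genes Rps6ka1 and Rps6ka6. Histone genes had 10 tumor-only starts of 75 (13.3%, against 5.58% of all genes), but 2 of these lacked a normal summit within 5 kb.

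Gastric genes were mixed. Of 18 pit and neck genes, 4 starts (22.2%, against 1.42% of all genes) were normal-only: Gkn1 and Muc5ac, products of pit cells, Gpx2 and Vsig1. Gkn1 and Vsig1 had no tumor summit within 5 kb, at 15524 and 68309 bp, while Muc5ac and Gpx2 had one at 4195 and 4778 bp. Another 2 of the 18 starts (11.1%, against 5.58% of all genes) were tumor-only at equal length, Aqp5 and Muc6, both with no normal summit within 5 kb. At Muc6, the mucin of neck cells, the tumor summit was at 148 bp and the nearest normal summit at 15814 bp. Cblif, which encodes gastric intrinsic factor, had 5 normal summits, 1 at equal length and 1 in the full list, the nearest tumor summit being 1041 bp from its start. Pepsinogen C (Pgc) had 3, 0 and 3. Parietal genes had 64, 32 and 104 summits. By the rule given below 7 of 20 were called lower at equal length, against 2.03% of all genes. Among all genes with 2 or more normal summits, as these 7 had, 9.40% were called lower. With the full tumor list 0 of the 7 were called lower. Fewer summits were found at 12 of the 15 parietal genes with 2 or more, near the 75% of all such genes, while Atp4a, the proton pump catalytic subunit, had 2, 4 and 6.

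Counted per gene, a difference was called when at least 3 summits separated the lists and the log2 ratio of the counts plus 1 was at least 1 in size. At equal length 58 genes (0.268%) had more tumor summits and 439 (2.03%) fewer. With the full tumor list 4184 genes (19.3%) had more and 58 (0.268%) fewer. All of the latter 58 were among the 439, and all 58 genes with more at equal length also had more in the full list. Of the 439, 80 had no tumor summit at equal length, and 218 had at least as many as normal once the full list was used. The median log2 ratio was 0 over all genes, and −0.58 over the 4670 genes with 2 or more normal summits. Those 4670 were selected by their normal count, which by itself favors negative ratios. A matching value for genes selected by tumor count is not given. With summits under 2 kb apart merged, 13 genes had more and 201 fewer.

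Among the genes with more tumor summits, Foxp4, a forkhead repressor, had 4 normal, 9 equal-length and 20 full-list summits. Ahdc1, a gene for an AT-hook protein, had 7, 12 and 21, and Tnrc18 had 4, 8 and 32. Ahdc1 and Tnrc18 had a difference of 3 or more but missed the ratio at equal length. These 3 genes were marked at their starts in both lists. With summits under 2 kb apart merged, tumor minus normal at equal length was 3 at Foxp4, 3 at Ahdc1 and 0 at Tnrc18. Hivep3, a zinc finger protein gene, had 0, 3 and 9, and Celf4, for a splicing regulator of neurons, had 0, 3 and 10. Zc3h12b on the X chromosome had 0, 4 and 4. Dlg4, the postsynaptic scaffold, and Oprd1, an opioid receptor, had 0, 3 and 6 each, as did Cdh20, a cadherin, and Il11ra2, for an interleukin 11 receptor chain. Clvs2 had 0, 3 and 7. Zfp991 had 0, 4 and 9 and Ccl21b had 1, 5 and 14. Zfp991, Ccl21b and Il11ra2 belong to families of near-identical copies on chromosome 4, where read placement makes counts uncertain.

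**Figure D3:**
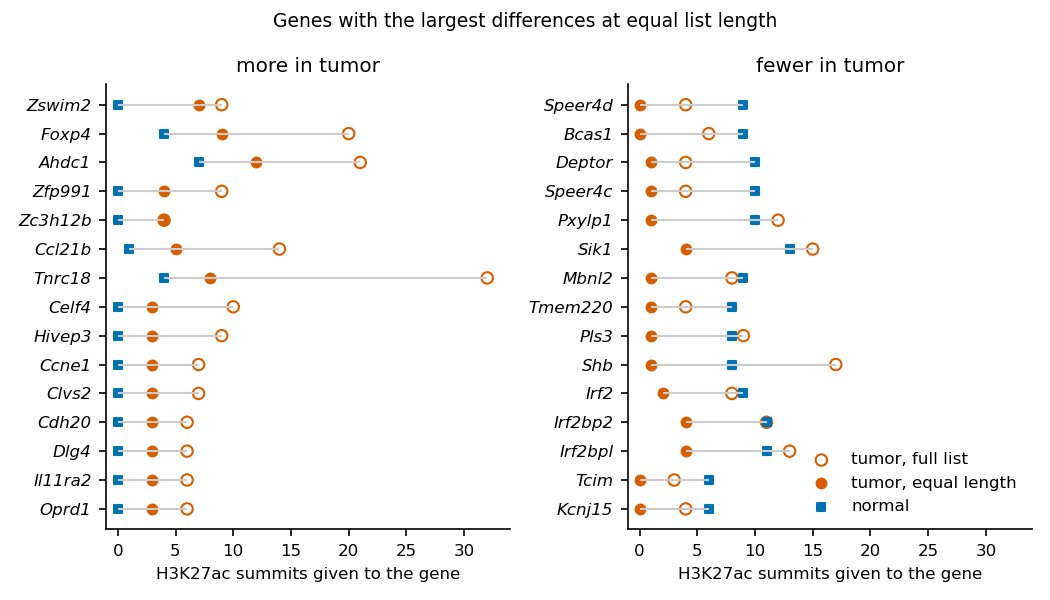
H3K27ac summits given to each gene (x axis) for the 15 genes with the largest positive and the 15 with the largest negative difference at equal length, tumor minus normal. Squares are the normal list, filled circles the tumor list at equal length and open circles the full tumor list. The full tumor list reaches the normal count at genes such as Sik1 (13, 4 and 15) and does not at Deptor (10, 1 and 4).

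Among the genes with fewer, Bcas1 (chromosome 2, 170343973 to 170427911), known from amplification in breast cancer, had 9 normal summits, 0 at equal length and 6 in the full list. Deptor, an inhibitor of the growth kinase mTOR, had 10, 1 and 4. Its start was marked in both lists, at ranks 6741 and 5156. With summits under 2 kb apart merged, tumor minus normal at equal length was -6. Sik1, a kinase induced by cAMP, had 13, 4 and 15, Pxylp1 10, 1 and 12, and Shb, an adaptor of receptor kinases, 8, 1 and 17. Mbnl2, a splicing regulator, had 9, 1 and 8, Tmem220 8, 1 and 4, and Pls3, an actin bundler, 8, 1 and 9. Irf2bp2 and Irf2bpl, partners of IRF2, had 11, 4 and 11 and 11, 4 and 13. Tcim had 6, 0 and 3, and Kcnj15, a potassium channel of parietal cells, 6, 0 and 4.

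Speer4c and Speer4d, members of a repeated rodent family on chromosome 5, had 10, 1 and 4 and 9, 0 and 4. The copies are near-identical, which makes their counts uncertain.

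The 58 genes lower with both versions of the tumor list included Fam234a (9, 3 and 3), Pigu (6, 1 and 1), Gcnt2 (6, 2 and 2), Slc4a4, a bicarbonate transporter (3, 0 and 0), and the epithelial transcription factor Ehf (5, 0 and 2). Fzd4, a Wnt receptor, had 5, 0 and 0 although its start was marked in both lists at 244 and 266 bp. Summits go to the nearest gene end, and the start summit of such a gene can be given to a neighbour.

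**Figure D4:**
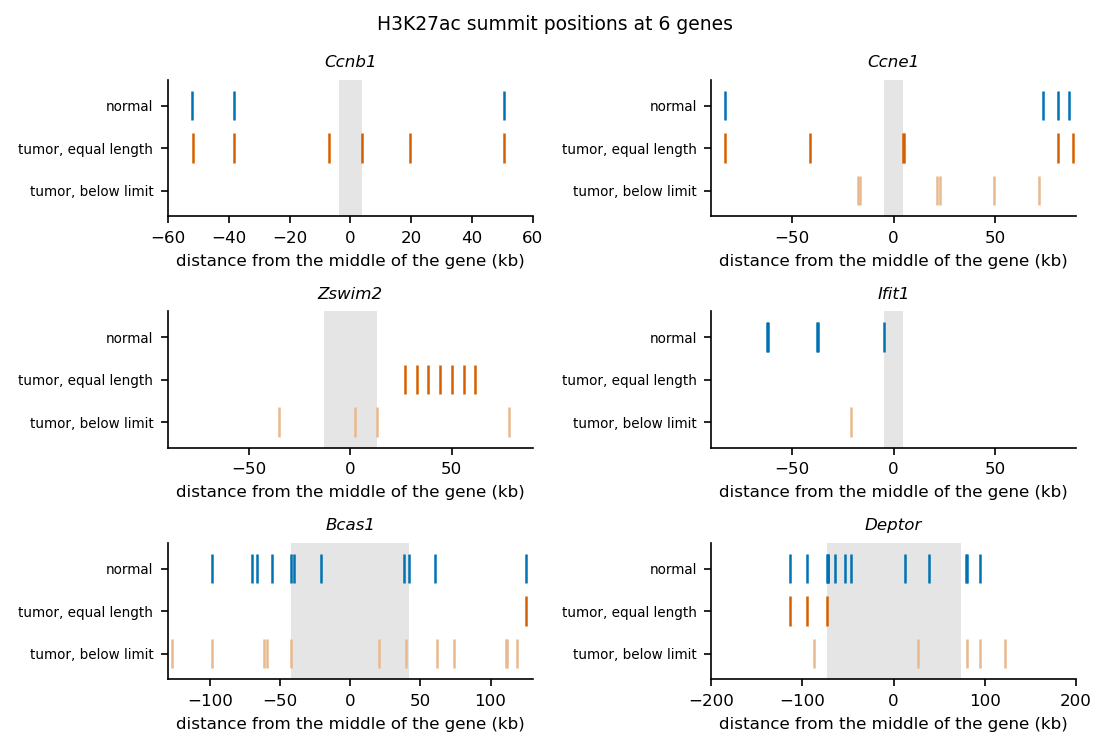
Summit positions at Ccnb1, Ccne1, Zswim2, Ifit1, Bcas1 and Deptor, as distance from the middle of the gene in kb (x axis). Rows are normal summits, tumor summits within the equal-length limit and tumor summits below it, and grey bands are the genes. Ccnb1 and Ccne1 have tumor summits at 1 end, Zswim2 has an even row of 7 outside the gene, Ifit1 has a normal summit at 1 end, and Bcas1 and Deptor have rows of normal summits.

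In larger stretches the same rule was applied. Of 14152 windows of 100 kb with a summit, 132 had more tumor summits at equal length and 605 fewer. The 2 windows with the largest differences upward held clusters of keratin-associated protein genes on chromosome 11 (0 normal and 9 tumor, and 0 and 8 summits at equal length). These genes encode hair proteins, and their list was added after the first results had been seen. They had 0 normal, 15 equal-length and 46 full-list summits in all. Of their 56 starts 10 (17.9%) were tumor-only, against 5.58% of all genes. A histone gene window on chromosome 13 had 3 and 7, and a window with Tead2 and Cd37 on chromosome 7 had 0 and 4. The largest differences downward were in windows with Speer family genes on chromosome 5 (18 and 1, 15 and 1). Other windows with fewer lay over Rad51b (8 and 0), Mecom (8 and 0) and Pirt (10 and 2).

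Dense clusters, of 5 or more summits chained by the gap customary for super-enhancers, were more frequent in the normal list. It had 283 against 98 in the tumor list at equal length and 2179 in the full tumor list. The 283 normal clusters held 1749 normal, 783 equal-length tumor and 1236 full-list tumor summits. There was no equal-length tumor summit in 28 of them and no full-list tumor summit in 5. A cluster over Pgc and Tfeb had 9 normal and 2 equal-length summits, and 9 in the full list. Near Nr2f2, a nuclear receptor gene, a tumor cluster of 13 held 12 normal summits.

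YAP summits were unevenly spread over the classes of H3K27ac. In the YAP libraries labelled tumor 1 and tumor 2, 91.7% and 95.3% of the equal-length tumor summits shared with the normal list had a YAP summit within 1 kb. For normal-only summits these shares were 60.8% and 72.7%, and for tumor-only summits 20.4% and 22.1%. The lists of the libraries labelled normal 1 and normal 2 were short, with 1574 and 2121 summits, and covered 1.68% and 8.06% of shared, 1.24% and 2.36% of normal-only and 5.24% and 6.07% of tumor-only summits. Tumor-only summits at gene starts had a YAP summit in 56.4% and 70.7% and those elsewhere in 14.9% and 14.5%. Of the 1208 tumor-only gene starts, 56.6% and 71.1% had a YAP summit within 1 kb. All 18 tumor-only starts of the mitosis list had one in both libraries, as did all 71 of its starts marked in both lists. Among all genes, 95.6% and 97.7% of starts marked in both lists had one. Of the 18 normal-only interferon starts, 9 and 15 had one, against 65.5% and 76.5% of all 307 normal-only starts. The words inside the peak names contradict the labels of the libraries labelled tumor 1 and normal 2, so the direction between YAP groups is not used here.

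**Figure D5:**
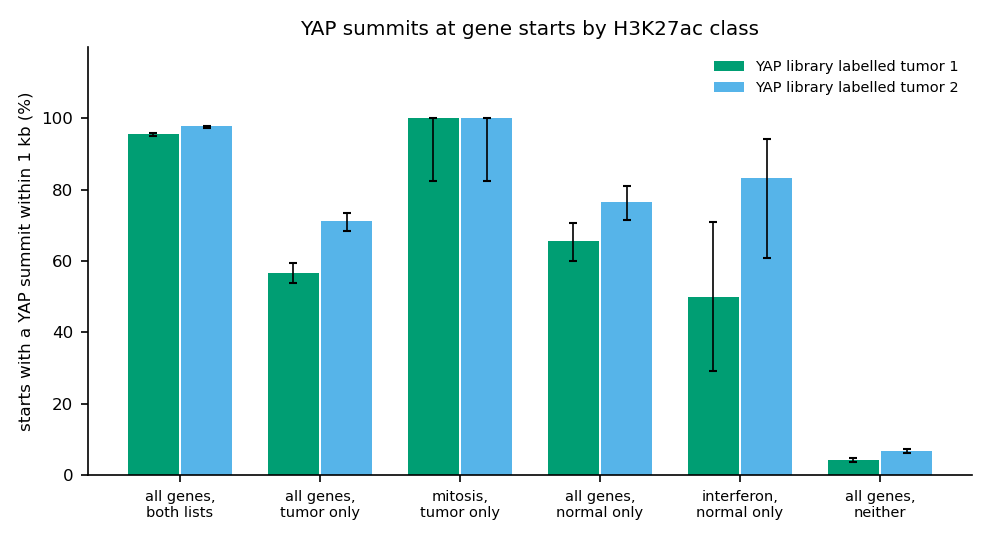
Percent of gene starts with a YAP summit within 1 kb (y axis) by H3K27ac class (x axis), for the YAP libraries labelled tumor 1 and tumor 2. Bars start at 0 and error bars are Wilson 95% intervals for counting error. All 18 tumor-only mitosis starts carry a YAP summit in both libraries, against 56.6% and 71.1% of all tumor-only starts.

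Promoters of the classes differed in base composition. Over the 300 bases around a start, the median GC content was 62.3% at starts marked in both lists, 62.8% at tumor-only starts, 48.7% at normal-only starts and 46.0% at starts in neither, the middle pair with no summit of the other list within 5 kb. The median number of CpG was 23, 19, 5 and 3. The GC box GGGCGG, on either strand, was in 62.2% (59.2 to 65.1) of tumor-only, 12.4% (8.50 to 17.8) of normal-only and 46.7% of all promoters. It was in 70.1% of promoters marked in both lists and in 9.41% of those in neither.

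Motif shares differed between the classes. The AP-1 site TGANTCA was in 5.11% of tumor-only and 12.4% of normal-only promoters, against 7.04% of all. Starts in neither list had 11.7%, close to the normal-only share. The TEAD site GGAATG was in 13.3%, 22.3% and 13.5%, and in 17.1% of starts in neither. The ETS site CCGGAAG was in 7.56%, 7.77% and 11.7%, against 20.4% of promoters marked in both lists. CCAAT was in 34.4%, 43.0% and 38.5%. TTTGAA was in 11.2%, 27.5% and 15.6%, and in 25% of starts in neither. In the mitosis list it was in 7 of 14 tumor-only starts with no normal summit within 5 kb and in 41 of 70 starts marked in both, and CCAAT was in 10 of 14 and 45 of 70. The interferon element was in 2.26%, 10.9% and 3.38%, and in 4.83% of starts in neither. Of the 21 normal-only promoters that had it, 12 belonged to the interferon list. The 10.9% therefore mostly restates that list and is not a separate trait of normal-only starts. Within the interferon list 12 of 16 normal-only starts with no tumor summit within 5 kb had it, as did 10 of 17 marked in both and 15 of 33 in neither. Letters were counted on both strands of the same 300 bases, and a match is a description only.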

How the data were processed

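Summit lists were deposited for 6 libraries, read as 50 bp pairs per the labels. Per the submitters' processing notes, Bowtie2, MACS2 and the builds GRCm38 and mm10 were used. Their versions, the thresholds and any input control are not stated there. Each deposited score is a −log10 value that the authors' caller gave, of a p-value or of a q-value, and served here to order the summits of a single list. Lists were called per sample. Depth is unknown, because summit lists hold no read counts, and depth affects how many summits a caller returns.

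Summits on chromosomes 1 to 19 and X were kept, leaving out 265 normal and 544 tumor summits. Of 5 summits tied at the equal-length limit, 1 was kept. Partners were sought within 1 kb, each summit went to the protein-coding gene with the closest end (RefSeq, GRCm38.p6, 21631 genes) within 50 kb, and transcript starts came from the RefSeq promoter table, which covered 17274 of these genes. Python 3.11.15, numpy 2.4.6, pandas 2.3.3, scipy 1.17.1 and matplotlib 3.10.9 were used, and distances and calls were tested on simulated data. Groups came from the labels, and with a single library in each no test was run.

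The members and gene lists were chosen with earlier results of these data known: 79 lists first, and 5 more (mitosis and centromere, DNA replication, interferon-induced genes by symbol, major histocompatibility genes, keratin-associated proteins), with the motifs TTTGAA and GAAA, any 2 bases, GAAA, after the first tables were seen. Genes were named by rule: the 15 largest differences each way at equal length (model names passed over), the best-ranked sites and starts of 1 list only, up to 4 members of a list by size of difference, the largest windows and clusters, and markers. Beyond that rule, all starts marked in 1 list only were named for some lists, and Areg, Ereg, Isg15, Nr2f2 and the genes lower in both versions were chosen after their values were seen. Alternatives of window, list length, score and gene assignment are given at the end.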

Additional observations from a re-analysis of the deposited data

How the results depend on the processing

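No paired analysis was possible because each H3K27ac group has 1 library and so shares no second replicate number. Of 99 recomputed main values 42 stayed within 1.5 times the count or inside the interval, and 57 moved. Normal and tumor summits shared were 51.1% and 51.1% within 200 bp, 71.9% and 60.5% within 5 kb, 89.9% and 27.5% at a score of at least 10, 64.1% and 64.1% after merging within 2 kb, 80.2% and 24.8% with full lists, and 87.0% and 81.7% with both lists cut to 10000. Genes with more and fewer tumor summits numbered 4184 and 58 with full lists, 7 and 8 with both lists cut to 10000, 5 and 122 within 10 kb, 13 and 201 after merging, and 2024 and 7 at a score of at least 10. More were called within 100 kb (152) and with summits inside genes given to the shortest gene (193). Members of the 79 lists called higher and lower, 12 and 94 in the report's setting, numbered 708 and 12 with full lists, 2 and 3 with 10000, 0 and 27 within 10 kb, 4 and 39 after merging, and 369 and 1 at a score of at least 10. Higher members numbered 26 within 100 kb and 42 with the shortest gene.

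Starts of 1 list only moved to 3789 (tumor) with full lists and, for the normal list, to 528 at 500 bp, 160 with none within 5 kb and 484 with both lists cut to 10000 (for starts, these last 2 alternatives were chosen after seeing the data). The potassium channel count went from 19 to 65 with full lists and to 2 with 10000, and the interferon count from 18 to 8 with 10000. The mitosis and cell cycle counts stayed within 1.5 times in all 7 alternatives (13 to 25 and 8 to 14), but the share of all genes did not. With full lists 22 of 97 mitosis and 14 of 37 cell cycle starts were tumor-only, against 17.5% of all genes (5.58% at equal length). The mitosis share was then closer to that of all genes. Strong normal summits without a partner numbered 1 at rank 1000, 15 at rank 5000 and 0 with none within 5 kb, and strong tumor ones 10 at rank 5000. Windows with more tumor summits numbered 43 at 50 kb and 5245 with full lists, and with fewer 78 with full lists. Clusters numbered 28 (normal) and 15 (tumor) with a gap of 5 kb, and 2179 in the full tumor list. Within 200 bp, YAP shares were 12.3% and 13.4% of tumor-only and 20.6% and 27.3% of normal-only summits.

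Tumor minus normal turned positive at Pxylp1 (2), Sik1 (2), Pls3 (1), Shb (9) and Irf2bpl (2) with full lists. At a score of at least 10 it did so at Deptor (1), Pxylp1 (4), Sik1 (3), Shb (5), Irf2 (2), Irf2bp2 (2) and Irf2bpl (6), and with both lists cut to 10000 at Irf2 (1). At Ahdc1 it turned to -1 within 10 kb. List length and unknown depth therefore limit each count per gene, and the cause of these changes was not tested.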

Other observations

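Of 397 zinc finger genes of the Zfp series, 18 starts (4.53%) were normal-only, against 1.42% of all genes, and 12 (3.02%, against 0.74%) had no tumor summit within 5 kb. Their 25 tumor-only starts (6.30%) and 21 with no normal summit within 5 kb (5.29%) were near the 5.58% and 4.84% of all genes, and 291 starts were marked in both lists. The 38 major histocompatibility genes had 14 normal, 24 equal-length tumor and 45 full-list tumor summits. Their 0 normal-only and 2 tumor-only starts (5.26%), H2-DMa and H2-Q2, were near the shares of all genes. H2-DMa had a normal summit within 5 kb, which left 1 start (2.63%), H2-Q2. Olfactory receptor genes, which serve sensory neurons of the nose, had 12 normal, 139 equal-length tumor and 396 full-list tumor summits given to them, while 1089 of 1106 starts were marked in neither list. Vomeronasal receptor genes had 15, 97 and 284, with 349 of 353 starts in neither. These summits lay around the genes, within 50 kb of an end.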
